A study of Mus musculus with 479 samples.

Results

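The hearts described here were set apart by their content of Myl7, the regulatory light chain of atrial myosin. Of 30 wild-type (WT) heart libraries from mice of the Dchs1 line, the 10 with the most Myl7 in TPM (a transcript level scaled for length and library size) were compared with the 10 with the least, all chosen by the deposited Myl7 TPM, so that 20 of the 120 heart libraries and of the 479 libraries in the series carried the main comparison. The same ranking was repeated as a check among 30 WT hearts of the Fat4 line, and then within 30 hearts heterozygous (Het) for Dchs1 and within 30 hearts Het for Fat4. The study sequenced poly(A) RNA of 4 tissues, with Dchs1+/- and Fat4+/- mice set against WT littermates; Dchs1 and Fat4 encode giant cadherins that bind each other. All mice were on the C57BL/6NTac background, so every Myl7-high and every Myl7-low library of a group had the same genotype and no treatment. The labels give no sex, age, litter or dissection record for a library and do not state that each one came from a separate animal, so p-values measure only the spread between libraries. Because Myl7 chose the libraries, its own difference is given as a description with no test, and it is left out of every count below.

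Atrial and ventricular heart muscle share most of their contractile machinery but use different myosin light chains. Atrial muscle contains Myl7 and Myl4 where ventricular muscle contains Myl2 and Myl3, and atrial cells also store natriuretic peptide in granules and release it into the blood. The atria lie at the base of the heart beside the pacemaker tissue, the valves, the roots of the great vessels and the fat around them. In RNA from a whole piece of tissue, fewer cells of a type and less RNA per cell cannot be told apart.

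Myl7 ranged from 415 TPM to 3.98 TPM among the 30 Dchs1 WT hearts. The 10 Myl7-high libraries of the Dchs1 line held 335 to 415 TPM with a median of 363, whereas the 10 Myl7-low libraries held 3.98 to 194 TPM with a median of 40.2, a ratio of medians of 9.03. At the upper boundary ranks 10 and 11 were close, at 335 and 329 TPM, and at the lower boundary ranks 21 and 20 held 194 and 249 TPM. The upper ranks were close together and the low end was spread out, with 7 of the 30 libraries below 100 TPM and 5 of them below 30 TPM. Among Fat4 WT hearts the Myl7-high libraries held 370 to 502 TPM (median 400) and the Myl7-low libraries 2.38 to 285 TPM (median 168), a ratio of 2.38, and only 1 library fell below 30 TPM. The boundaries there were 370 against 354 TPM and 285 against 290 TPM.

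**Figure D1:**
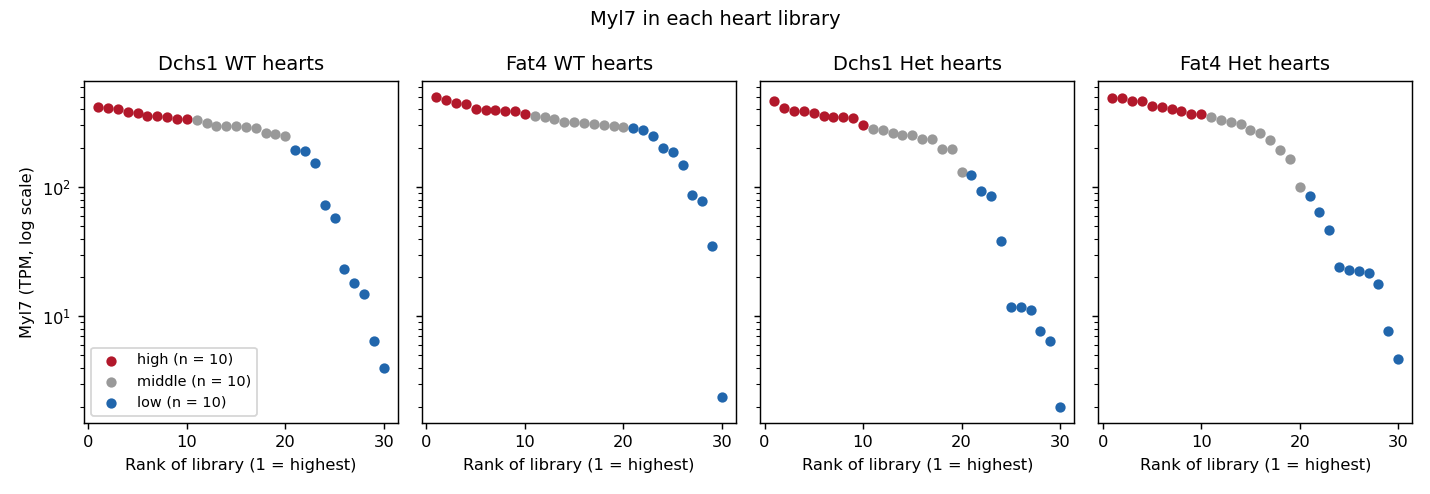
Myl7 in each of 30 libraries of 4 heart groups, in TPM on a log axis, in order of its level, with the libraries taken as Myl7-high and Myl7-low marked by colour. The Dchs1 WT libraries lie on a plateau that ends near 249 TPM and then drop to 3.98 TPM, while 1 Fat4 WT library lies below 30 TPM.

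The promoters of the genes closest to Myl7 in their levels are shown because Myl7, Myl4 and Mybphl moved together across these hearts. Mybphl encodes an atrial relative of the thick-filament proteins that bind myosin. Each sequence below is the 250 bases before the annotated gene start, from RefSeq on GRCm38.p6, written 5' to 3' on the strand of the gene. Capitals mark matches to 4 short motifs searched on both strands: AGGTGT for T-box factors, AGATAA for GATA factors, AGGTCA as a nuclear receptor site and CATTCC for TEAD factors.
Myl7 (gene 17898, minus strand of chr11:5898783-5899032): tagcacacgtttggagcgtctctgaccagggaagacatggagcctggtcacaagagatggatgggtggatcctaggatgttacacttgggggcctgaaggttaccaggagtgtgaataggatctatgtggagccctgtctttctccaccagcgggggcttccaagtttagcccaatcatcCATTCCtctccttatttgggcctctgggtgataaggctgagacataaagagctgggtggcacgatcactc
Myl4 (gene 17896, plus strand of chr11:104550413-104550662): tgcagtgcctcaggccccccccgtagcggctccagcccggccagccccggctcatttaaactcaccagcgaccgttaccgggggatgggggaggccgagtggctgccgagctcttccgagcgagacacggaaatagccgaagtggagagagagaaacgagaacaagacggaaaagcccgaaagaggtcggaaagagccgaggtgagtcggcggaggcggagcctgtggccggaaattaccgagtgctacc
Mybphl (gene 68753, plus strand of chr3:108364661-108364910): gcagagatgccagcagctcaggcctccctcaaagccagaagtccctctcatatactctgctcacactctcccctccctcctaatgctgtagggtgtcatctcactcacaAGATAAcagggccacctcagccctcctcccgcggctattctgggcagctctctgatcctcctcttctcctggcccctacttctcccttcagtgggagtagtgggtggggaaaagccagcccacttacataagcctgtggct
The Myl7 promoter holds 1 match, the TEAD letters CATTCC starting 70 bases before the gene start. The Mybphl promoter holds 1 match, the GATA letters AGATAA starting 141 bases before it, and the Myl4 window holds none of the 4 motifs. Among 32851 promoter windows of this length the TEAD letters are found in 12.6%, the GATA letters in 10%, the T-box letters in 11.8% and the nuclear receptor letters in 14%. These matches describe letters only and say nothing of which factor binds.

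Depth overlapped between the Myl7 groups in each line. Total counts per library were 18570323 to 21982473 in Dchs1 WT hearts, with medians of 20254414 in Myl7-high and 20167518 in Myl7-low libraries (2-sided permutation test on the difference, p = 0.971, adjusted over 4 groups 0.971). Fat4 WT totals were 14849694 to 24286107, with medians of 19449595 and 20141652 (permutation p = 0.556, adjusted 0.741). Every compared library showed heart muscle: over the 4 groups the summed level of 4 ventricular markers was 10505 to 15242 TPM in Myl7-high and 9411 to 15436 TPM in Myl7-low libraries. The targeted genes followed the labels, with Dchs1 at 0.541 to 1.18 TPM in the 20 Het libraries against 1.27 to 2.34 TPM in the 20 WT libraries of its line, and Fat4 at 0.496 to 1.08 TPM in the 20 Het libraries against 0.970 to 1.94 TPM, with some overlap, in the 20 WT libraries of its line. Neither gene passed the test between Myl7-high and Myl7-low WT hearts (Dchs1 log2 fold change 0.22, adjusted p = 0.176 in its line, and Fat4 0.07, adjusted p = 0.681 in its line, edgeR). Libraries whose profile stood apart from their group numbered 2 among Dchs1 WT hearts, 1 high and 1 low, and 3 among Fat4 WT hearts, 1 high and 2 low.

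Genes that went with Myl7 were mostly higher, and the large differences were all in that direction. In Dchs1 WT hearts 498 of 13153 tested genes (3.79%) were higher and 171 (1.3%) lower in Myl7-high than in Myl7-low libraries at an adjusted p under 0.05 (edgeR quasi-likelihood test, Benjamini-Hochberg over all genes). Of the genes called higher, 96 were higher by at least 2-fold and their median log2 fold change was 0.53, whereas none of the genes called lower reached a 2-fold difference and their median was -0.17. Fat4 WT hearts gave 161 higher (1.23%) and 37 lower (0.282%) of 13123 genes, with 32 of the higher genes at 2-fold or more and none of the lower ones. The median over all tested genes was -0.01 for Dchs1 WT and 0.00 for Fat4 WT hearts. The split depended on the scale: limma on log2(TPM + 1) called 1057 higher and 5 lower in Dchs1 WT hearts, and 497 higher and 5 lower in Fat4 WT hearts. The median over all genes on that scale was itself above 0, at 0.059 in Dchs1 WT and 0.080 in Fat4 WT hearts. A gene named below as lower in counts in WT hearts is therefore given with its value on that second scale, where it was tested there.

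Most of the atrial contractile and membrane genes were higher. Of 17 list members tested, with Myl7 left out, 11 were higher and none was lower in Myl7-high Dchs1 WT hearts, with a median log2 fold change of 0.65, and in Fat4 WT hearts 9 were higher and none lower, with a median of 0.69. Myl4, the essential light chain that partners Myl7, held 292 to 400 TPM (median 320) in Myl7-high and 4.28 to 151 TPM (median 34.2) in Myl7-low Dchs1 WT libraries. No Myl7-low library reached the lowest Myl7-high one, and the log2 fold change was 2.25 ± 0.48 (SE; adjusted p = 0.00745, edgeR). Mybphl held 18.6 to 27.96 TPM (median 21.6) in Myl7-high libraries and 0 to 11.3 TPM (median 2.14) in Myl7-low libraries, 1 of which had none. Its log2 fold change was 2.35 ± 0.45 (adjusted p = 0.00305, edgeR). Sln, sarcolipin, which restrains the calcium pump of the sarcoplasmic reticulum in atrial muscle, held 116 to 201 TPM (median 153) in Myl7-high and 1.84 to 84.5 TPM (median 16.3) in Myl7-low libraries, again without overlap (log2 fold change 2.19 ± 0.46, adjusted p = 0.00643, edgeR). With 15 against 15 libraries Myl4 (1.28, adjusted p = 0.0695, edgeR) and Sln (1.24, adjusted p = 0.0657) did not pass.

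In Fat4 WT hearts 1 of these 3 genes, Mybphl, passed the test. The 3 again did not overlap between the groups. Their ranks closely followed that of Myl7, which chose the libraries (Spearman's rho 0.928 to 0.958 over 30 libraries), so this separation is a description only. Myl4 was 296 to 441 TPM in Myl7-high and 2.72 to 262 TPM in Myl7-low Fat4 WT libraries, a log2 fold change of 1.25 ± 0.38 that did not pass (adjusted p = 0.0924, edgeR). Sln was 143 to 215 TPM in Myl7-high and 1.11 to 119 TPM in Myl7-low libraries (1.25 ± 0.34, adjusted p = 0.0603, edgeR). Mybphl was 18.02 to 34.0 TPM in Myl7-high and 0.259 to 16.5 TPM in Myl7-low libraries (1.44 ± 0.32, adjusted p = 0.0207, edgeR). On the log2(TPM + 1) scale Myl4 and Sln both passed, at 2.02 (adjusted p = 0.0388 and 0.0283, limma), and with 15 against 15 libraries Mybphl did not (0.917, adjusted p = 0.0902, edgeR).

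Other atrial membrane and kinase genes showed smaller and tighter differences. The kinase gene Sbk3 was 9.75 to 20.5 TPM in Myl7-high and 2.80 to 9.998 TPM in Myl7-low Dchs1 WT libraries (log2 fold change 1.56 ± 0.22, adjusted p = 0.000196, edgeR), and its relative Sbk2 was 6.32 to 11.1 TPM against 1.59 to 7.24 TPM (0.998 ± 0.21, adjusted p = 0.00656, edgeR). Both were also called in Fat4 WT hearts, Sbk2 with a log2 fold change of 0.84 ± 0.11 (adjusted p = 0.000262, edgeR). Cacna2d2, an auxiliary subunit of voltage-gated calcium channels, was 0.983 to 1.83 TPM in Myl7-high and 0.364 to 0.913 TPM in Myl7-low Dchs1 WT libraries, without overlap, and its fold change was nearly equal in the lines (1.31 ± 0.16 and 1.30 ± 0.19 on the log2 scale, adjusted p = 5.85e-05 and 0.000456, edgeR). Gja5, the gap junction protein connexin 40 of atria and conduction fibres, was 3.58 to 4.97 TPM against 1.86 to 3.02 TPM (0.65 ± 0.09, adjusted p = 0.000128, edgeR), again without overlap. Fgf12, which modulates sodium channels, was 1.24 to 2.10 TPM in Myl7-high and 0.0715 to 1.13 TPM in Myl7-low libraries (2.06 ± 0.32, adjusted p = 0.000631, edgeR). The remaining called members were Cacna1d, a pore subunit of L-type calcium channels (0.81), Kcnj3, a pore subunit of the potassium channel opened by acetylcholine (0.49), and Myl1, a light chain best known from fast skeletal muscle (0.61). The 6 members that did not pass in Dchs1 WT hearts were Kcnj5 (0.30), Adam11 (0.28), Kcnk3 (0.02), Tmod1 (0.01), Smyd1 (-0.11) and Kcna5 (-0.12).

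**Figure D2:**
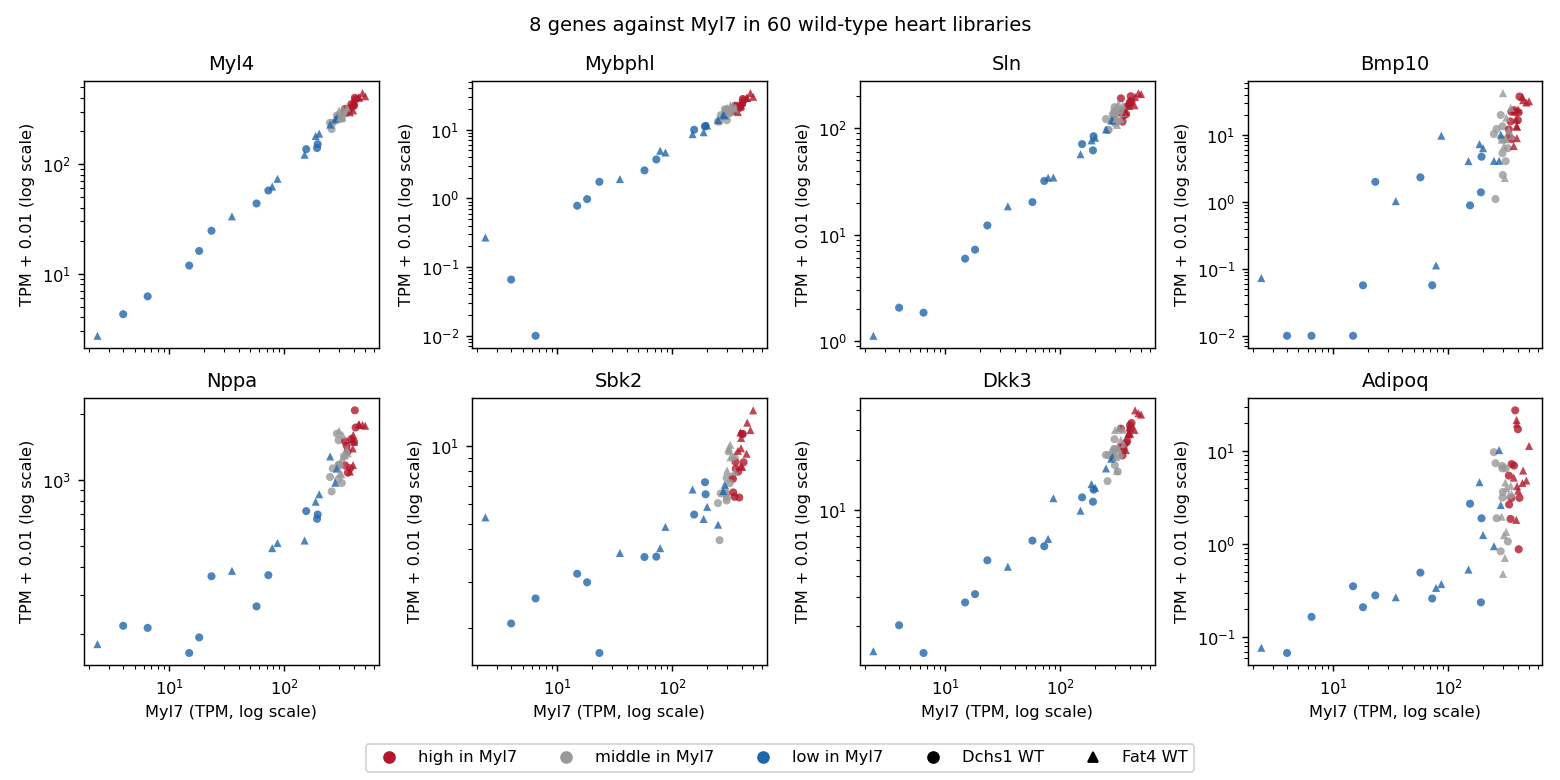
Levels of 8 genes against Myl7 in 60 WT heart libraries of both lines, all as TPM + 0.01 on log axes, with 1 point per library. Myl4, Mybphl and Sln fall on a line with Myl7 down to the lowest libraries, Sbk2 and Nppa flatten there, and Bmp10 and Adipoq scatter.

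The natriuretic peptide genes were split. Of 9 tested members of that list, Nppa, Pam, Npr3, Npr1 and Cpe were higher in Myl7-high Dchs1 WT hearts and none was lower, with a list median of 0.14. Nppa, the precursor of atrial natriuretic peptide, held 1081 to 2079 TPM (median 1463) in Myl7-high and 163 to 723 TPM (median 315) in Myl7-low libraries. These ranges did not overlap, and the log2 fold change was 1.83 ± 0.25 (adjusted p = 0.000179, edgeR). Nppb, the related peptide made in atria and in loaded ventricles, held 47.6 to 421 TPM in Myl7-high and 59.0 to 576 TPM in Myl7-low libraries and did not pass (-0.27 ± 0.28, adjusted p = 0.644, edgeR). Pam, the amidating enzyme that is a main membrane protein of atrial granules, was 273 to 365 TPM against 148 to 242 TPM, without overlap (0.64 ± 0.07, adjusted p = 2.67e-05, edgeR). Npr3, the clearance receptor for these peptides, and Npr1, their signalling receptor, differed by 0.51 ± 0.11 and 0.24 ± 0.05 (adjusted p = 0.00656 and 0.0063, edgeR). With 15 against 15 libraries neither receptor gene passed (0.353 and 0.153, adjusted p = 0.0599 and 0.103, edgeR).

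Fat4 WT hearts had fewer such calls, and 3 of the 9 members were higher, with a median of 0.08. These were Nppa, at 1094 to 1794 TPM in Myl7-high and 179 to 1282 TPM in Myl7-low libraries (1.0 ± 0.24, adjusted p = 0.0289, edgeR), Pam (0.59 ± 0.08, adjusted p = 0.000262) and Npr3 (0.47 ± 0.11, adjusted p = 0.0228). Nppb again did not pass, at 152 to 427 TPM in Myl7-high and 78.5 to 593 TPM in Myl7-low libraries (-0.54 ± 0.19, adjusted p = 0.145, edgeR). Nppa lost its call without the outlying replicates 13, 14 and 15 (0.98, adjusted p = 0.0528, edgeR) and with 15 against 15 libraries (0.674, adjusted p = 0.0993). Npr3 lost its call with 15 against 15 libraries (0.248, adjusted p = 0.319, edgeR) and with the library number as a slope (0.436, adjusted p = 0.1115).

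Secreted and lipid-handling atrial genes included Bmp10, which had the largest fold change among the atrial lists in Dchs1 WT hearts. Of 6 tested, Bmp10, Dkk3, Clu and Stard10 were higher and none was lower in Dchs1 WT hearts, with a median of 0.63, and the same 4 were higher in Fat4 WT hearts, with a median of 0.45. Bmp10, a ligand of the transforming growth factor family made in atrial muscle, held 8.65 to 37.4 TPM (median 19.2) in Myl7-high libraries and 0 to 4.72 TPM (median 0.462) in Myl7-low libraries, of which 3 had none. Its log2 fold change was 4.01 ± 0.49 in Dchs1 WT hearts (adjusted p = 5.85e-05, edgeR) and 2.05 ± 0.42 in Fat4 WT hearts (adjusted p = 0.0134, edgeR). With 15 against 15 libraries Bmp10 lost its call in both lines, at 1.78 in Dchs1 WT (adjusted p = 0.0595, edgeR) and 1.26 in Fat4 WT hearts (adjusted p = 0.144). Dkk3, a secreted protein of the Dickkopf family, was 21.2 to 33.2 TPM against 1.37 to 13.2 TPM (2.03 ± 0.30, adjusted p = 0.000338, edgeR), without overlap. Stard10, a lipid transfer protein, was 27.1 to 41.2 TPM against 10.3 to 23.5 TPM (1.06 ± 0.13, adjusted p = 5.33e-05, edgeR), and the chaperone-like clusterin gene Clu differed by only 0.21 ± 0.06 (adjusted p = 0.0357, edgeR), or 0.20 without the outlying replicates 9 and 14 (adjusted p = 0.0582). With 15 against 15 libraries Clu lost its call in Dchs1 WT hearts (0.163, adjusted p = 0.0524, edgeR). In Fat4 WT hearts Dkk3 (0.871, adjusted p = 0.0611, edgeR) and Clu (0.117, adjusted p = 0.135) lost theirs in that setting. Hamp, which encodes the iron hormone hepcidin and was outside these lists, was 5.01 to 10.9 TPM in Myl7-high and 0.162 to 3.04 TPM in Myl7-low libraries, also without overlap (2.57 ± 0.28, adjusted p = 2.5e-05, edgeR).

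Transcription factors of the atrium had small fold changes. Of 10 tested, Tbx5, Nr2f1, Nr2f2 and Osr1 were higher in Dchs1 WT hearts and none was lower, with a median of 0.08, and only Tbx5 passed in Fat4 WT hearts. Tbx5, needed for atrial and conduction identity, was 10.9 to 16.6 TPM in Myl7-high and 8.10 to 12.4 TPM in Myl7-low Dchs1 WT libraries, with overlapping ranges (0.34 ± 0.07, adjusted p = 0.00754, edgeR), and differed by 0.41 ± 0.07 in Fat4 WT hearts (adjusted p = 0.0015, edgeR). Nr2f2, a nuclear receptor that holds atrial identity in mouse, was 5.51 to 7.60 TPM against 3.35 to 5.85 TPM (0.44 ± 0.08, adjusted p = 0.00201, edgeR). Osr1, a factor of the embryonic field that forms the atrial septum, was 1.92 to 3.02 TPM against 0.744 to 1.87 TPM, without overlap (0.73 ± 0.14, adjusted p = 0.0028, edgeR). With 15 against 15 libraries Tbx5 (0.222, adjusted p = 0.0623, edgeR) and Osr1 (0.426, adjusted p = 0.0903) lost their call in Dchs1 WT hearts. Nr2f1 lost its call there within the longest run of library numbers (0.459, adjusted p = 0.1001, edgeR). Nr2f2 and Osr1 in Fat4 WT hearts had log2 fold changes of 0.23 and 0.26 and did not pass (adjusted p = 0.0595 and 0.298, edgeR), although Nr2f2 passed there without the outlying replicates 13, 14 and 15 (0.265, adjusted p = 0.0399, edgeR), with the library number as a slope (0.283, adjusted p = 0.0442) and on the log2(TPM + 1) scale (0.286, adjusted p = 0.00666, limma).

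Pacemaker and conduction genes were partly higher. In Dchs1 WT hearts 5 of 11 tested members were higher and none lower, with a median of 0.28, among them Shox2, Cacna1h, Cpne5 and Tbx18. Shox2, the homeobox factor of the sinoatrial node, was 0.645 to 1.24 TPM in Myl7-high and 0.165 to 0.630 TPM in Myl7-low libraries, without overlap (1.04 ± 0.18, adjusted p = 0.00124, edgeR). Hcn4, the main pacemaker channel of the node, was 0.583 to 1.73 TPM in Myl7-high and 0.282 to 1.43 TPM in Myl7-low libraries and did not pass (0.11 ± 0.21, adjusted p = 0.806, edgeR). Cacna1h, a T-type calcium channel, was 2.26 to 4.57 TPM against 1.01 to 2.79 TPM (0.87 ± 0.14, adjusted p = 0.000652, edgeR). Fat4 WT hearts also had 5 of 11 higher, with a median of 0.43. The conduction adhesion gene Cntn2 passed there (0.43, adjusted p = 0.0266, edgeR) and Tbx18 did not (0.12, adjusted p = 0.444). Shox2, 1 of the 5, lost its call in Fat4 WT hearts without the outlying replicates 13, 14 and 15 (0.797, adjusted p = 0.0728, edgeR) and with 15 against 15 libraries (0.717, adjusted p = 0.0622).

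Ventricular muscle genes differed little. Of 22 tested, 1 was lower and none higher in Dchs1 WT hearts (median -0.13), and 2 were lower and none higher in Fat4 WT hearts (median -0.11). Myl2, the ventricular regulatory light chain, held 9088 to 10489 TPM in Myl7-high and 8829.6 to 11247 TPM in Myl7-low Dchs1 WT libraries and did not pass (-0.14 ± 0.05, adjusted p = 0.141, edgeR). Mybpc3, cardiac myosin-binding protein C, was the 1 member called in that line, at 482 to 673 TPM against 479 to 725 TPM (-0.28 ± 0.07, adjusted p = 0.0289, edgeR), and its difference on the log2(TPM + 1) scale was -0.19 (adjusted p = 0.106, limma). Within the longest run of library numbers it was -0.25 (adjusted p = 0.0826, edgeR). The 2 called in Fat4 WT hearts were Myl3, the ventricular essential light chain, at 3177 to 3886 TPM against 3653 to 4021 TPM (-0.22 ± 0.04, adjusted p = 0.00966, edgeR), and Ckm, muscle creatine kinase (-0.18 ± 0.03, adjusted p = 0.00583, edgeR). On the log2(TPM + 1) scale these were -0.12 and -0.08, and neither passed (adjusted p = 0.0655 and 0.184, limma).

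Respiratory chain genes were slightly lower in the Dchs1 line in counts. Of 20 tested, 6 were lower and none higher in Dchs1 WT hearts, with a median of -0.10, and none was called in Fat4 WT hearts, with a median of -0.11; all 20 fold changes were below 0 in both. Ndufs1, a core subunit of complex I, was 214 to 260 TPM in Myl7-high and 229 to 262 TPM in Myl7-low libraries (-0.16 ± 0.04, adjusted p = 0.0111, edgeR). Uqcrc2, a core subunit of complex III, differed by -0.13 ± 0.03 (adjusted p = 0.0049, edgeR), and Dld, a subunit shared by the pyruvate and other 2-oxo acid dehydrogenase complexes, by -0.17 ± 0.03 (adjusted p = 0.00192, edgeR) with overlapping levels of 159 to 187 and 179 to 196 TPM. None of these 3 genes passed on the log2(TPM + 1) scale in Dchs1 WT hearts. There Ndufs1 was -0.08 (adjusted p = 0.215, limma), Dld -0.09 (adjusted p = 0.112) and Uqcrc2 -0.07 (adjusted p = 0.338), all below the median over all genes of 0.059. The same 3 genes in Fat4 WT hearts were at 0.10, 0.08 and 0.05 on that scale, where the median over all genes was 0.080.

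Most fat cell genes were higher in Myl7-high Dchs1 WT hearts. Of 11 tested 7 were higher and none lower, with a median log2 fold change of 3.43, but their size depended on the group size. With 15 against 15 libraries Ucp1 (1.98, adjusted p = 0.114, edgeR), Plin1 (1.60, adjusted p = 0.106), Adipoq (1.52, adjusted p = 0.116) and Car3 (1.54, adjusted p = 0.158) did not pass. Pck1 (1.95, adjusted p = 0.0959), Cfd (1.36, adjusted p = 0.162) and Cidec (1.42, adjusted p = 0.175) did not pass in that setting either, nor did Cyp2e1, given below (1.13, adjusted p = 0.156). Ucp1, the uncoupling protein of brown fat, was 0 to 24.4 TPM (median 3.08) in Myl7-high and 0 to 2.41 TPM (median 0) in Myl7-low libraries, with 1 high and 7 low libraries at 0 (4.88 ± 0.91, adjusted p = 0.00256, edgeR). Adipoq, the fat hormone adiponectin, was 0.870 to 27.3 TPM (median 4.28) against 0.0578 to 2.70 TPM (median 0.261), with overlap (3.47 ± 0.65, adjusted p = 0.0025, edgeR). Plin1, which coats the lipid droplets of fat cells, was 0.115 to 5.93 TPM against 0 to 0.845 TPM (3.59 ± 0.69, adjusted p = 0.00328, edgeR). Car3, a carbonic anhydrase abundant in fat and muscle, was 4.48 to 69.2 TPM against 0.140 to 5.74 TPM (3.88 ± 0.70, adjusted p = 0.00192, edgeR), and Cyp2e1, a cytochrome P450 listed with liver genes, was 4.41 to 47.6 TPM against 0.803 to 7.25 TPM (2.45 ± 0.48, adjusted p = 0.00344, edgeR). The members that did not pass were Fabp4 (0.05), Lpl (-0.13), Cidea (0.36) and Thrsp (0.21), of which Fabp4 and Lpl are also expressed by capillary endothelium or heart muscle.

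In the Fat4 line fat cell genes were higher in value but mostly uncalled, with 1 of 11 called higher and a median of 1.77. The called gene was Plin1, at 0.600 to 3.78 TPM in Myl7-high and 0.0363 to 1.01 TPM in Myl7-low libraries (2.38 ± 0.45, adjusted p = 0.0055, edgeR). Adipoq was 1.81 to 21.5 TPM against 0.0671 to 10.2 TPM (1.92 ± 0.58, adjusted p = 0.0924, edgeR), and the Myl7-low library at 10.2 TPM was replicate 14, one of the 3 outlying ones. Without replicates 13, 14 and 15, Adipoq (2.24, adjusted p = 0.0348), Pck1 (2.70, adjusted p = 0.0140), Car3 (2.21, adjusted p = 0.0385), Cidec (2.15, adjusted p = 0.0305) and Cyp2e1 (1.59, adjusted p = 0.0348) passed by edgeR. The sum of the 3 fat markers was 3.09 to 45.9 TPM in Myl7-high and 0.162 to 18.1 TPM in Myl7-low Fat4 WT hearts, and 0.986 to 56.3 against 0.0578 to 5.14 TPM in Dchs1 WT hearts. The part of such fat tissue in the other results was not tested.

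Genes of the great vessels were higher in the Dchs1 line. Of 14 smooth muscle genes tested 11 were higher and none lower, with a median of 0.76, while none of 14 was called in Fat4 WT hearts, where the median was 0.24. Myh11, smooth muscle myosin, was 14.7 to 31.6 TPM in Myl7-high and 7.87 to 19.5 TPM in Myl7-low Dchs1 WT libraries, with overlap (0.84 ± 0.15, adjusted p = 0.00137, edgeR). Cnn1, the actin-binding protein calponin, was 2.81 to 11.7 TPM against 0.739 to 3.805 TPM (1.58 ± 0.26, adjusted p = 0.000974, edgeR). Eln, the elastin of vessel walls, was 18.98 to 29.6 TPM against 9.83 to 19.3 TPM (0.67 ± 0.10, adjusted p = 0.000376, edgeR). In Fat4 WT hearts Myh11 was 19.03 to 36.4 against 10.3 to 36.6 TPM (0.35 ± 0.18, adjusted p = 0.292, edgeR), with the highest Myl7-low value again in replicate 14. With 15 against 15 libraries Myh11 (0.496, adjusted p = 0.0601, edgeR), Acta2 (0.612, adjusted p = 0.0594), Tagln (0.573, adjusted p = 0.0601) and Cnn1 (0.871, adjusted p = 0.0597) lost their call in Dchs1 WT hearts. The sum of 3 vessel markers was 97.8 to 255 TPM in Myl7-high and 37.4 to 138 TPM in Myl7-low Dchs1 WT hearts, and its part in the other results was not tested.

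The epicardial and mesothelial list, genes of the outer covering of the heart, had 6 of 10 higher in Dchs1 WT hearts with a median of 1.24, and none of 11 called in Fat4 WT hearts with a median of 0.34. Krt19, a keratin of that layer, was 0.396 to 5.64 TPM in Myl7-high and 0.297 to 1.31 TPM in Myl7-low Dchs1 WT libraries (1.65 ± 0.38, adjusted p = 0.0133, edgeR), and Msln, the surface protein mesothelin, was 0.837 to 5.87 TPM against 0.634 to 2.78 TPM (1.37 ± 0.36, adjusted p = 0.0292, edgeR). Both genes overlapped between the groups, and with 15 against 15 libraries neither passed (Krt19 1.05, adjusted p = 0.0806, and Msln 1.02, adjusted p = 0.0745, edgeR). In Fat4 WT hearts Krt19 had a log2 fold change of 0.34 ± 0.53 (adjusted p = 0.767, edgeR) and Msln of 0.61 (adjusted p = 0.434).

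Matrix, valve and endothelial genes moved in part. Of 20 fibroblast and matrix genes 8 were higher in Dchs1 WT hearts, with a median of 0.31, and 1, the adhesion glycoprotein gene Fn1, in Fat4 WT hearts. Fn1 was 10.3 to 14.8 TPM in Myl7-high and 6.37 to 9.98 TPM in Myl7-low Dchs1 WT libraries, without overlap (0.47 ± 0.08, adjusted p = 0.000883, edgeR). Its call in Fat4 WT hearts was lost without the outlying replicates 13, 14 and 15 (0.359, adjusted p = 0.0543, edgeR), with 15 against 15 libraries (0.246, adjusted p = 0.115) and with the library number as a slope (0.241, adjusted p = 0.212). Of 12 valve and endocardial genes, Npr3, Postn (0.53), Prelp (0.30) and Comp (0.74) were higher, and Npr3 alone of 11 was called in Fat4 WT hearts. In Dchs1 WT hearts Postn lost its call with 15 against 15 libraries (0.378, adjusted p = 0.0623, edgeR). Comp lost its call within the longest run of library numbers (0.70, adjusted p = 0.0545, edgeR). The endothelial list had 3 of 16 higher in Dchs1 WT hearts, the large-vessel and venous genes Vwf (0.30), Plvap (0.69) and Selp (1.01), and none of 16 called in Fat4 WT hearts. In Dchs1 WT hearts Vwf (0.249, adjusted p = 0.0597, edgeR) and Selp (0.53, adjusted p = 0.205) lost their call with 15 against 15 libraries. Both also lost it within the longest run of library numbers (0.280 and 0.854, adjusted p = 0.0886 and 0.0548, edgeR). The pan-endothelial genes Pecam1 and Cdh5 were at 0.06 and 0.03 in the Dchs1 line and did not pass.

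Blood, nerve and other tissue lists gave few calls. Hba-a2, an alpha globin gene, was the 1 of 8 red cell genes called in Dchs1 WT hearts, at 130 to 1300 TPM in Myl7-high and 74.9 to 389 TPM in Myl7-low libraries (1.59 ± 0.42, adjusted p = 0.0278, edgeR), although the list median was 1.41; the alpha globin copies share sequence and their counts are uncertain. Within the longest run of library numbers Hba-a2 was at 0.826 (adjusted p = 0.166, edgeR), while Alas2 (1.496, adjusted p = 0.0496), which makes heme in red cell precursors, and Hba-a1 (1.45, adjusted p = 0.0444) passed without the outlying replicates 9 and 14, and both also with 15 against 15 libraries. None of 8 was called in Fat4 WT hearts, with a median of 0.75. Mbp, a myelin protein gene, was the 1 of 8 nerve genes called in Dchs1 WT hearts (0.84 ± 0.14, adjusted p = 0.00095, edgeR), and in Fat4 WT hearts Mbp (0.72) and Cdh19 (0.43), a cadherin of Schwann cells, were called. Atp2a1, the calcium pump of fast skeletal muscle, was called higher in both lines (1.10 ± 0.19 and 1.34 ± 0.17, adjusted p = 0.00139 and 0.000229, edgeR), while the other tested skeletal muscle genes were not called. Pdpn (0.41) was the 1 of 7 lymphatic genes called in Dchs1 WT hearts. Its call was lost with 15 against 15 libraries (0.326, adjusted p = 0.0737, edgeR) and within the longest run of library numbers (0.357, adjusted p = 0.122). It was also lost without the outlying replicates 9 and 14 (0.399, adjusted p = 0.0574, edgeR). Macrophage, B cell, thymus and Y-linked gene lists had no called member in either WT group. Of the thymus list only 2 of 14 genes were tested in each WT group. Of 8 B cell genes 4 were tested in Dchs1 WT hearts, all above 0 with a median of 0.79. In Fat4 WT hearts 5 were tested, all above 0 with a median of 0.17.

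State-of-tissue lists had no called member in either WT group in the 10 against 10 comparison by edgeR. These covered circadian clock, immediate early, glucocorticoid response, heme and oxidative stress, interferon and endoplasmic reticulum chaperone genes. The 14 glucocorticoid response genes had a median log2 fold change of -0.22 in Dchs1 WT hearts, with 1 above 0. In Fat4 WT hearts their median was -0.12, with 6 above 0. Hmox1, the heme-degrading enzyme, had a log2 fold change of -0.64 in Dchs1 WT and -1.33 in Fat4 WT hearts without passing. Other fits called a few members: limma on log2(TPM + 1) called Ier2 (0.284, adjusted p = 0.0441), Pdia3 (0.263, adjusted p = 0.0431) and Pdia4 (0.264, adjusted p = 0.0305) in Dchs1 WT hearts, and edgeR with the library number as a slope called the clock gene Arntl in Fat4 WT hearts (-0.252, adjusted p = 0.0491). The 9 lung epithelial genes failed the count filter, but the 2 markers Scgb1a1 and Sftpc summed to between 0 and 424 TPM in Myl7-high and 0 and 0.264 TPM in Myl7-low Dchs1 WT hearts, with medians of 0.0854 and 0 TPM.

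**Figure D3:**
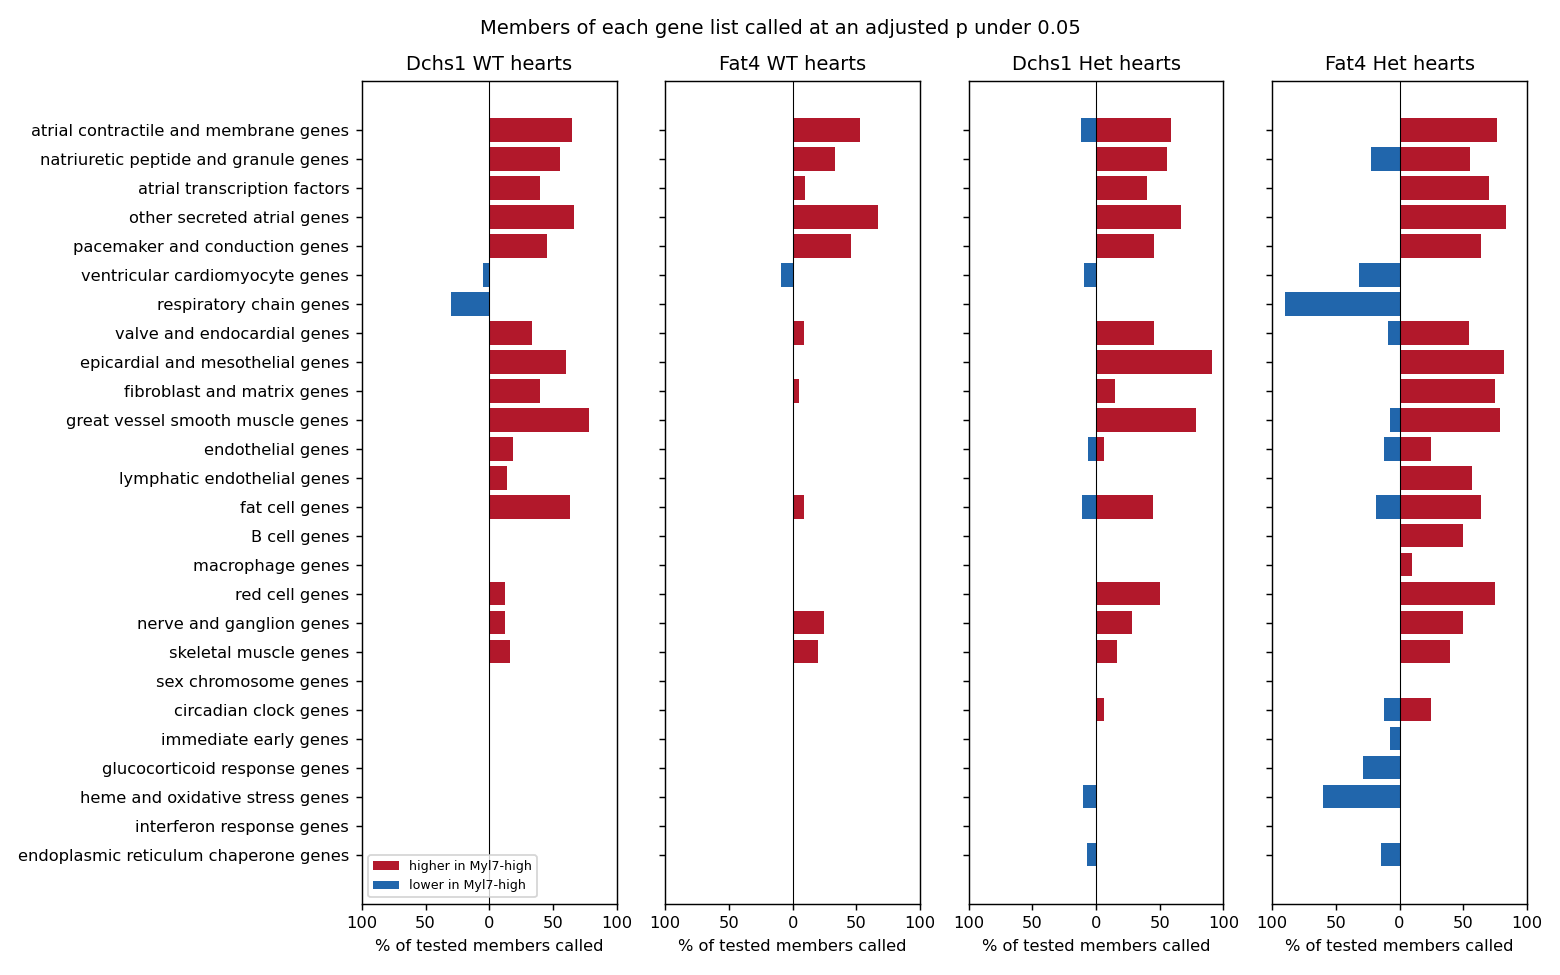
Percentage of tested members of each gene list called higher or lower in Myl7-high hearts, for lists with at least 4 tested members, in 4 heart groups. Atrial lists have called members in all 4 groups, while vessel, epicardial and fat lists have far fewer calls in Fat4 WT hearts than in the other groups.

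Among all genes, the smallest adjusted p-values in Dchs1 WT hearts belonged to Plekha7, Gng2 and Tbc1d1, and to Hamp, Pam and Stard10, above. Plekha7, a protein of adherens junctions, was 1.06 to 1.92 TPM in Myl7-high and 0.349 to 0.953 TPM in Myl7-low Dchs1 WT libraries (1.41 ± 0.14, adjusted p = 9.95e-06, edgeR). Gng2, a G protein gamma subunit, was 2.85 to 4.01 TPM against 1.02 to 2.13 TPM (1.09 ± 0.12, adjusted p = 2.54e-05, edgeR), and Tbc1d1, a regulator of glucose transporter traffic, was 5.60 to 7.68 TPM against 2.97 to 4.54 TPM (0.71 ± 0.08, adjusted p = 2.67e-05, edgeR). Plekha7, Gng2 and Tbc1d1 did not overlap between the groups. They were named for their small p-values in this same comparison, so this separation is a description only. Tmem163 and Rxfp1 had larger adjusted p-values than the atrial membrane genes Cacna2d2 and Gja5, above. Tmem163, a zinc transporter of vesicles, was 1.57 to 3.41 TPM against 0.0559 to 0.972 TPM (2.50 ± 0.35, adjusted p = 0.000191, edgeR). Rxfp1, the relaxin receptor, was 0.452 to 1.16 TPM against 0.0294 to 0.427 TPM (2.29 ± 0.33, adjusted p = 0.00023, edgeR). In Fat4 WT hearts Tbc1d1 had the log2 fold change 0.66 ± 0.07 (adjusted p = 2.08e-05, edgeR), Tmem163 1.62 ± 0.28 (adjusted p = 0.00294) and Rxfp1 1.77 ± 0.32 (adjusted p = 0.00359). Rxfp1 lost its call there with 15 against 15 libraries (0.992, adjusted p = 0.112, edgeR).

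The genes lower in Myl7-high hearts differed by small amounts. The largest fall in Dchs1 WT hearts was that of D7Ertd443e, at 0.341 to 0.657 TPM in Myl7-high and 0.534 to 1.49 TPM in Myl7-low libraries (-0.80 ± 0.18, adjusted p = 0.013, edgeR), and it was at -0.13 in Fat4 WT hearts. The lower genes with the smallest p-values were Dld, above, and the mitochondrial enzyme genes Aldh4a1, which acts in proline breakdown (-0.22 ± 0.04, adjusted p = 0.00449, edgeR), and Acad11, an acyl-CoA dehydrogenase (-0.21 ± 0.04, adjusted p = 0.00451, edgeR). On the log2(TPM + 1) scale Aldh4a1 (-0.132, adjusted p = 0.0630, limma), Acad11 (-0.130, adjusted p = 0.0962), Hdlbp (-0.067, adjusted p = 0.225) and Ttc7b (-0.101, adjusted p = 0.0986) did not pass. D7Ertd443e did not reach 1 TPM in 10 libraries and was not tested on that scale.

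Across all 30 libraries of each of the 4 heart groups, the levels most like that of Myl7 were those of Myl4 (mean Spearman rho 0.978 over the 4 groups), Mybphl (0.969), Sln (0.947), Dkk3 (0.931) and Tmem163 (0.925). Lmntd1 (0.923), Fgf12 (0.920), Stard10 (0.919), Sbk3 (0.908) and Tbc1d1 (0.906) followed. Of 12310 genes ranked, 44 had a mean rho over 0.8 and the median gene had 0.167; the points of a group share their line and tissue, and libraries of every Myl7 level enter. At the other end stood transcripts of the mitochondrial genome, TrnG (-0.497) and mt-Rnr2 (-0.445).

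Ratios to Myl7 and levels in the lowest libraries are given as a description only, since Myl7 chose the libraries and a low Myl7 raises any ratio over it. Myl4 per Myl7 was 0.845 to 0.981 in Myl7-high and 0.728 to 1.07 in Myl7-low Dchs1 WT libraries, and Sln per Myl7 was 0.334 to 0.572 in Myl7-high and 0.284 to 0.526 in Myl7-low libraries. Nppa per Myl7 was 3.04 to 5.09 in Myl7-high and 3.47 to 54.5 in Myl7-low libraries. In the 5 libraries with the least Myl7 the median level was 3.72% of the Myl7-high median for Myl4, 3.57% for Mybphl, 14.5% for Nppa, 32.0% for Sbk2, 51.2% for Gja5, 53.2% for Pam and 66.3% for Tbx5. Bmp10 had a median of 0 in those libraries.

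The WT groups of both lines gave the same direction for most genes called higher. Of 498 genes higher in Dchs1 WT hearts, 497 were tested in Fat4 WT hearts, 473 (95.2%) were positive there against 51.4% of all genes, and 107 were called, which is 21.5% of the genes read there and 66.5% of the 161 called in Fat4 WT hearts. The 171 lower genes carried over less to Fat4 WT hearts, with 114 (66.7%) negative against 48.6% of all genes, a median log2 fold change of -0.03, and 2 called. In a joint fit of both lines none of 13517 genes had a difference between lines that passed (edgeR interaction term), with 1450 genes at an unadjusted p under 0.05 and a lowest adjusted p of 0.0897; DESeq2 called 8. The vessel and epicardial lists, called in the Dchs1 line and not in the Fat4 line, are therefore not shown to differ between lines.

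**Figure D4:**
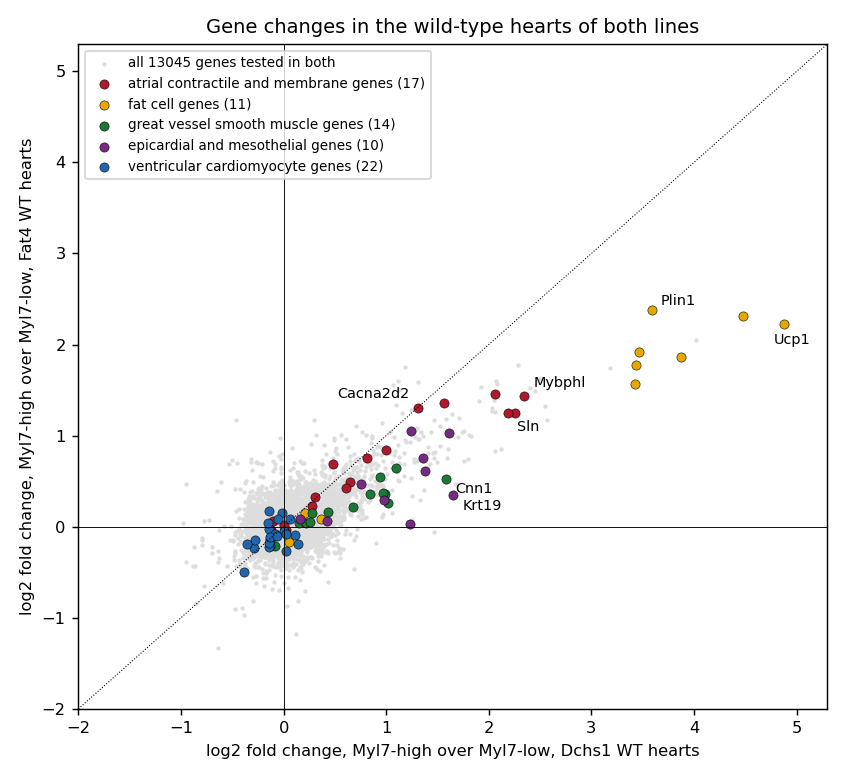
Log2 fold change between Myl7-high and Myl7-low WT hearts in the Dchs1 line (horizontal) and the Fat4 line (vertical) for genes tested in both, with members of 5 gene lists coloured. Atrial genes lie to the upper right, fat genes farther out, and ventricular genes near 0.

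In the Het hearts, ranked within their own groups, most atrial contractile and membrane genes were higher again. Of 17 tested, 10 were higher and 2 lower in Dchs1 Het hearts, and 13 were higher and none lower in Fat4 Het hearts. Of 9 natriuretic peptide and granule genes tested, 5 were higher in each Het group. None of the 9 was lower in Dchs1 Het hearts and 2 were lower in Fat4 Het hearts. Myl7 was 303 to 465 TPM in Myl7-high and 1.98 to 124 TPM in Myl7-low Dchs1 Het libraries, and 367 to 491 against 4.71 to 85.2 TPM in Fat4 Het libraries, with 9 and 10 of the 30 libraries below 100 TPM. Dchs1 Het hearts gave 511 genes higher (3.91%) and 212 lower (1.62%) of 13083, and Fat4 Het hearts 1456 higher (11.1%) and 1395 lower (10.7%) of 13059. Myl4 had a log2 fold change of 2.93 ± 0.49 in Dchs1 Het (adjusted p = 0.000542, edgeR) and 3.47 ± 0.32 in Fat4 Het hearts (adjusted p = 3.74e-08). Bmp10 had 3.49 ± 0.64 and 4.74 ± 0.51 (adjusted p = 0.00159 and 3.5e-07, edgeR), and Nppa 2.40 ± 0.28 and 2.47 ± 0.19 (adjusted p = 1.11e-05 and 1.38e-09, edgeR). Whether the Het and WT groups differ in these fold changes was not tested.

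In both Het groups most vessel and epicardial genes were called higher. Epicardial genes were higher in 10 of 11 tested in Dchs1 Het and 9 of 11 in Fat4 Het hearts, and vessel genes in 11 of 14 in each, with 1 lower in Fat4 Het hearts. Fat genes were higher in 4 of 9 and 7 of 11, with 1 and 2 lower. Respiratory chain genes were lower in 18 of 20 in Fat4 Het hearts and in none of 20 in Dchs1 Het hearts. On the log2(TPM + 1) scale Ndufs1, Dld, Uqcrc2 and Atp5a1 were slightly above 0 in Fat4 Het hearts. The median over all genes there was 0.084. Of the 498 genes higher in Dchs1 WT hearts, 275 of 480 tested were called higher in Dchs1 Het hearts and 413 of 487 in Fat4 Het hearts. The 171 genes lower in Dchs1 WT hearts were all tested in both Het groups. In Dchs1 Het hearts 165 (96.5%) were negative against 50.5% of all genes, with 13 called lower. In Fat4 Het hearts 153 (89.5%) were negative against 51.0%, with 80 called lower and 1 called higher. Across all 4 groups 81 of 12874 genes were higher in each and none was lower in each, and the 81 included Mybphl, Bmp10, Dkk3, Nppa, Pam, Npr3, Sbk2, Sbk3, Cacna1d, Cacna2d2, Cacna1h, Shox2 and Tbx5.

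In the Dchs1 line Myl7 also followed the number that each library carries in its label. The labels do not say what this number records. Over the 24 Dchs1 WT libraries in the longest run of close numbers, Pearson's r between number and log2 of Myl7 TPM was -0.695 (permutation p = 0.00026, adjusted over 4 groups 0.00052). Spearman's rho was -0.653 (permutation p = 0.00084, adjusted 0.00168). Leaving out the 2 libraries with the most extreme numbers gave r = -0.593. Of these libraries, 7 of 8 Myl7-high ones had a number in the first 12 and 8 of 10 Myl7-low ones in the second 12. The 24 Dchs1 Het libraries of their run showed r = -0.731 (permutation p = 6e-05, adjusted 0.00024), whereas the 30 Fat4 WT libraries showed r = 0.0112 (permutation p = 0.984, adjusted 0.984) and rho = 0.366 (permutation p = 0.0464, adjusted 0.0619). Of the Fat4 WT libraries, 4 of 10 Myl7-high ones had a number in the first 15 and 6 in the second 15, against 8 of 10 Myl7-low ones in the first 15 and 2 in the second.

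**Figure D5:**
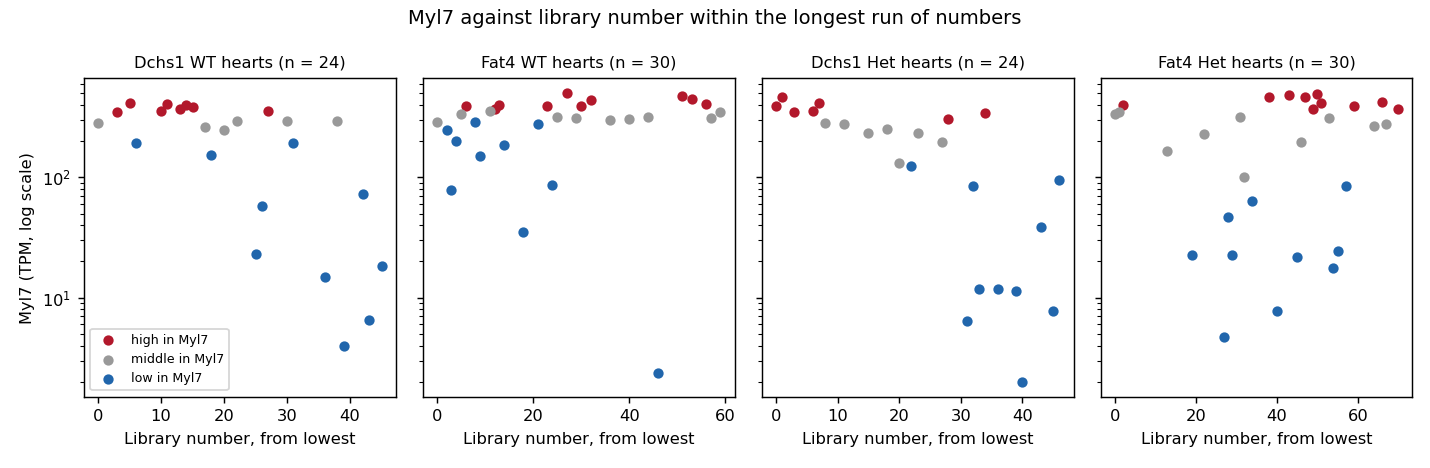
Myl7 in TPM against library number within the longest run of numbers in 4 heart groups, with 1 point per library coloured by its Myl7 group. In the Dchs1 panels the low values lie toward the higher numbers, and in the Fat4 WT panel 8 of the 10 Myl7-low libraries lie in the lower 15 numbers.

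With the number added as a slope within that run, 26 genes were called in Dchs1 WT hearts, all higher, against 460 in the same run without it, and 12 of the 26 were among the 669 above. Of the 89 named genes called in the full comparison all 89 kept their direction and 7 passed: Hamp (2.25, adjusted p = 0.0303), Plekha7 (1.11, adjusted p = 0.0303), Gng2 (0.77, adjusted p = 0.0303), Tbc1d1 (0.58, adjusted p = 0.0349), Pam (0.46, adjusted p = 0.0427), Gja5 (0.61, adjusted p = 0.0451) and Lmntd1 (1.49, adjusted p = 0.0451, edgeR). Mybphl was at 1.55 (adjusted p = 0.44), Nppa at 1.21 (adjusted p = 0.13) and Bmp10 at 3.06 (adjusted p = 0.071). In Fat4 WT hearts 30 of the 39 named genes called kept their call and all 39 their direction. The part of whatever the number records in the Dchs1 differences was not tested beyond this fit.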

How the data were processed

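Poly(A) RNA was sequenced by strand-specific, single-end reads after magnetic bead extraction, per the labels' protocols. FastQC, bcl2fastq 2.17 and the build GRCm38 come from the submitters' processing notes, while for aligner and counting tool the entry is "not given in the sources used here". For each line the authors deposited a table of estimated counts and a table of TPM per gene, with 24475 gene ids, of which 24375 were matched to a symbol through the RefSeq table, and no unmatched columns (0). Between 14.2% and 14.34% of heart values in the deposited estimated counts were not whole, and these were rounded. Libraries were ranked by the deposited TPM of Myl7 within each group of 30.

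The 10 highest and 10 lowest were compared with edgeR 4.0.16 (quasi-likelihood test, TMM scaling, filterByExpr with a count minimum of 10 and a total minimum of 15, R 4.3.3), with Benjamini-Hochberg adjustment over all genes and a threshold of 0.05. The SE of a log2 fold change is its size divided by the square root of F. The interaction of line and Myl7 group was fitted over the 40 WT libraries. Levels are deposited TPM, as lowest, median and highest. Overlap of levels between the groups was read only for named and listed genes, and its share over all genes was not counted. Many of these genes were named for their fold change or p-value in the same comparison, so a lack of overlap is a description only. Permutation tests drew 100000 resamples. Alternatives used DESeq2 1.42.0, limma 3.58.1 on log2(TPM + 1) for genes of at least 1 TPM in 10 libraries, other group sizes, Mybphl or CPM for the ranking, a slope over all libraries, runs of library numbers (a new run begins after a gap over 20) and leaving out outlying libraries, whose median correlation with their group lay over 5 median absolute deviations below the median. The library number as a slope was added after seeing the data. The model fits were tested on simulated data.

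The libraries, the 29 gene lists (379 entries, 377 matched) and the tests were chosen with earlier results of these data known. Genes were named by rule, 206 in all: the first 3 entries and the 4 smallest p-values of each list, the 10 largest changes and 6 smallest p-values each way in Dchs1 WT hearts and the 6 largest each way in Fat4 WT hearts (called, with a mean of at least 1 CPM), the 10 genes most and 5 least like Myl7, and the top 6 of the interaction. Called or uncalled members outside the rule, and Hmox1, are named to complete a count and were chosen after their values were seen. Likeness to Myl7 is the Spearman correlation of log2(CPM + 0.5), averaged over 4 groups. No pair of libraries agreed within counting noise (the lowest chi-square, divided by the number of genes averaging at least 20 counts, was 3.48), so each was counted as 1. At a median depth near 20254414 counts per library, levels below 0.1 TPM rest on few reads. A gene that the rule names is not reported here.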

Additional observations from a re-analysis of the deposited data

Results flagged for a closer look

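Of 84 sets of 10 libraries examined for 21 genes, 11 held a library farther from the others than Dixon's 95% limit allows. That limit assumes normally distributed values, but unlogged TPM was used. The 4.2 sets expected at 1 in 20 therefore do not measure chance here. A set in which all libraries but 1 are at 0 is always flagged, as Sftpc was in both Myl7-low groups. In Myl7-high Dchs1 WT hearts the highest library held 37.44 TPM of Bmp10, with the next at 23.47 TPM, and another held 3.768 TPM of the lung surfactant gene Sftpc, with the next at 0.3169 TPM. In Myl7-low Dchs1 WT hearts replicate 18 held the most Bmp10 (4.718 TPM, next 2.317), Ucp1 (2.413 TPM, next 0.1655) and Plin1 (0.8452 TPM, next 0.3291), and 1 library held 0.08864 TPM of Sftpc where the others were listed at 0.

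In Myl7-high Fat4 WT hearts replicate 15 held the most Acta2, smooth muscle actin (223.7 TPM, next 149.2), and the most Sftpc (9.183 TPM, next 1.031). In Myl7-low Fat4 WT hearts replicate 14 held the most Adipoq (10.22 TPM, next 4.609), Myh11 (36.64 TPM, next 19.88) and Sftpc (0.3584 TPM, with the others listed at 0). Both replicates are among the 3 outlying Fat4 WT libraries. Whether other tissue in these libraries bears on their values was not tested.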

How the results depend on the processing

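No paired analysis was possible because Myl7-high and Myl7-low libraries belong to one labelled group and share no replicate number. Of Dchs1 WT hearts, against 669 genes called, DESeq2 called 1143, limma on log2(TPM + 1) 1062 and on log2(TPM + 0.1) 1055, 5 against 5 libraries 268, 15 against 15 libraries 274, a slope over 30 libraries 1344 and the library number as a slope 26. Of Fat4 WT hearts, against 198, DESeq2 called 553 (306 higher, 247 lower), the limma fits 502 and 481, 15 against 15 libraries 48, ranking by CPM 109, the slope over 30 libraries 388 and the library number as a slope 128. Of Dchs1 Het hearts, against 723, DESeq2 called 1199, 5 against 5 libraries 474, 15 against 15 libraries 375 and the library number as a slope 24. Of Fat4 Het hearts, against 2851, 5 against 5 libraries gave 398 and 15 against 15 libraries 1892, and limma called 3051 higher and 164 lower. The interaction of line and Myl7 group gave 0 genes, and 8 with DESeq2. In Fat4 Het hearts the fold changes of 4 genes turned positive in the limma fits with pseudocounts of 1 and 0.1: Dld (0.02051 and 0.02061), Uqcrc2 (0.003343 and 0.003352), Ndufs1 (0.01262 and 0.01267) and Atp5a1 (0.01132 and 0.01133). The median over all genes in those fits was 0.084 and 0.097, above each of these values. The cause was not tested. Among named genes, 15 against 15 libraries took the call from 43 in Dchs1 WT and 24 in Fat4 WT hearts. DESeq2 size factors in edgeR, no low-count filter, ranking by Mybphl, the middle libraries in the fit and leaving out outlying libraries kept each of these counts of calls within 1.5 times. Restriction to the longest run of library numbers gave 460 calls in Dchs1 WT and 496 in Dchs1 Het hearts; Fat4 hearts form a single run, so run-based alternatives gave no value there, and Fat4 Het hearts had no outlying library. Genes under about 0.1 TPM rest on few reads, which limits Ucp1, Plin1 and Bmp10 in Myl7-low hearts.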

Other observations

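The club cell gene Scgb1a1, a marker of airway lining, made up nearly all of the lung marker sum in hearts. In Fat4 WT hearts that sum was 0 to 729 TPM in Myl7-high libraries (median 20.2) and 0 to 903 TPM in Myl7-low libraries (median 0). In Het hearts it reached 259 TPM in Myl7-high and 0.589 TPM in Myl7-low Dchs1 Het libraries, and 275 TPM in Myl7-high and 0.176 TPM in Myl7-low Fat4 Het libraries. The largest value lay in a Myl7-low library, so the sum did not follow Myl7 in every group.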
